A study of Mus musculus with 20 samples.

Results

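The 10 mouse genes described here, Cdkn1a, Cdkn1b, Cdkn1c, Cdkn2a, Cdkn2b, Cdkn2c, Cdkn2d, Trp53, Mdm2 and Ccng1, encode the inhibitors of cyclin-dependent kinases (CDKs) and the core of the p53 circuit that feeds into them. They were chosen by symbol, and all 10 were found, each once, among the 14793 genes of the deposited table. All 10 were kept, since no filter on low values was applied.

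RNA was sequenced in bulk from knee joints of 20 male C57BL/6Nci mice, with 5 joints in each of 4 groups. The stated age of 12 weeks is that of the mice when they entered the work, and the joints were taken later, after surgery and injections. Every mouse, controls included, had its right knee destabilized by surgery on the medial meniscus, a model of osteoarthritis. At weeks 3 and 5 after surgery the knee received either a needle insertion alone (Ctrl) or mesenchymal stromal cells that were left without activation (MSC), activated with polyinosinic-polycytidylic acid (pIC) through the receptor TLR3 (TLR-MSC), or activated with 2′3′-cGAMP through STING (STING-MSC). The injected cells were grown from the pooled fat of male donors of the same strain, and every treated mouse received cells of the same pool. Control joints received no fluid, so that an effect of the cells and an effect of the injected fluid cannot be told apart in comparisons with Ctrl. The joints were taken whole, with cartilage, synovium, capsule and the bone next to them, so that each value is an average over many tissues. The time between the last injection and collection differs between the methods and the results of the study.

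CDK inhibitors stop dividing cells by binding the kinases that drive the cell cycle: the INK4 proteins bind the kinases partnered by D-type cyclins, and the CIP/KIP proteins bind a wider range of cyclin and kinase pairs. The transcription factor p53 responds to damage and stress, switches on the inhibitor p21, which Cdkn1a encodes, and also switches on Mdm2, whose product marks p53 for destruction. Lasting expression of p21 and of the INK4 inhibitor p16 is a hallmark of senescent cells, which are known to build up in cartilage and synovium of joints with osteoarthritis.

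The unit throughout is the normalized count, the reads of a gene divided by a size factor for the joint. The joints had from 27955496 to 52529972 reads on the genes of the table, with group medians of 33230113 in Ctrl, 42283681 in MSC, 33141873 in TLR-MSC and 31917015 in STING-MSC. The 10 genes were covered by between 16 reads, for Cdkn2a in a STING-MSC joint, and 23016 reads, for Ccng1 in a Ctrl joint. Of all joints 2 stood apart by genes with no reads: MSC replicate 5 lacked 296 genes, 239 of them found in all 19 others, and STING-MSC replicate 5 lacked 97, with 47 found in all others, whereas the rest lacked at most 42, with at most 4 found everywhere else. Groups were compared as differences of mean log2(normalized count + 1), tested in limma over all genes with Benjamini-Hochberg adjustment, and, for single genes, with a permutation test, exact and two-sided, that takes every way of splitting 10 joints into 5 and 5. The smallest p that this exact test can give is 0.00794, and exact p-values are printed without adjustment for the number of genes and comparisons. Comparisons with Ctrl ask what the cells and the fluid they came in do to the joint together. Those among the treated groups ask what activation of the cells through TLR3 or STING adds. As all cells came from the same donor pool, the joints of a group repeat the recipient mouse and not the donor pool. Comparisons with Ctrl share the same 5 control joints, as comparisons with MSC and with TLR-MSC share theirs.

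None of the 10 genes reached an adjusted p of 0.05 in limma in any of the 6 comparisons of groups, nor in edgeR or DESeq2, each of which also gave 0. Over all genes limma called 0.00676% between MSC and Ctrl, which was 1 gene, and 0% in each of the 5 other comparisons and over the 4 groups together. The count for MSC against Ctrl hung on single joints: it was 46 without MSC replicate 2, 26 without Ctrl replicate 1 and 6 without MSC replicate 5. At an unadjusted limma p of at most 0.05, 2 of the 10 were lower in STING-MSC than in Ctrl (Cdkn1a and Cdkn2a) and 0 were higher, where 5.69% of all genes were lower and 6.54% higher. Both genes lost this place without Ctrl replicate 3 or 4, where all genes had 1105 and 868 at this level beside 1808 with all joints. Cdkn2a also lost it without STING-MSC replicate 1, 2, 3 or 4. Cdkn1a was also the 1 gene of the 10 that was lower at this level in STING-MSC than in MSC, where 2.17% of all genes were lower and 2.77% higher, though it lost this place without any one of the STING-MSC joints, with the replicate number as a block and with genes of low mean left out. The balance of all genes there differed between methods: 410 were higher and 321 lower in limma, and 472 and 454 in DESeq2. It was 203 higher and 514 lower in edgeR, and 282 and 358 after quantile normalization. Cdkn1a was also the 1 of the 10 that was lower in STING-MSC than in TLR-MSC, where 1.78% of all genes were lower and 0.784% higher. There it lost this place without TLR-MSC replicate 2, 3 or 5 or STING-MSC replicate 5. The count was 0 in both directions for MSC against Ctrl (5.64% of all genes higher, 2.91% lower), for TLR-MSC against Ctrl (2.68% higher, 0.906% lower) and for TLR-MSC against MSC (1.89% higher, 1.99% lower). In limma's F-test over the 4 groups 0 of the 10 reached an unadjusted p of 0.05, against 6.42% of all genes, while edgeR and DESeq2 each had 1, Cdkn1a, beside 1088 of 14793 and 1438 of 14754 genes in all. The 5 joints of a group lay wholly apart from the other 5 for 1 of the 10 genes, Cdkn1a in STING-MSC against TLR-MSC, where 1.35% of all genes did so. In the other comparisons 0 of the 10 lay apart, where the share of all genes was 1.11% for MSC against Ctrl, 0.825% for TLR-MSC against Ctrl, 2.17% for STING-MSC against Ctrl, 0.581% for TLR-MSC against MSC and 1.05% for STING-MSC against MSC. With 10 genes, counts of 1 or 2 are too small to be read as more than this background.

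The direction of the 10 genes was mixed in each comparison. Between MSC and Ctrl 3 were higher and 7 lower, with a median log2 fold change of −0.13 beside −0.04 for all genes, and 5 of the 10 changed sign when single joints were left out. For TLR-MSC against Ctrl 4 were higher and 6 lower, with a median of −0.07 beside −0.01, and 4 changed sign in the same way. For STING-MSC against Ctrl 6 were higher and 4 lower, and the median was 0.06 beside 0.01, though Trp53 and Ccng1 changed sign when single joints were left out. The 4 lower genes in that comparison were Cdkn1a, Cdkn1c, Cdkn2a and Cdkn2b, as the plot of fold changes shows. Against MSC, 7 of the 10 were higher in TLR-MSC (median 0.07 beside 0.03), with Cdkn2a changing sign under quantile normalization, edgeR and DESeq2, and with 6 genes, Cdkn2a among them, changing sign when single joints were left out. In STING-MSC 4 were higher than in MSC (median −0.05 beside 0.02), and 3 changed sign with joints left out. STING-MSC against TLR-MSC had 6 higher and a median of 0.05 beside 0.02, and 2 changed sign with joints left out.

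**Figure D1:**
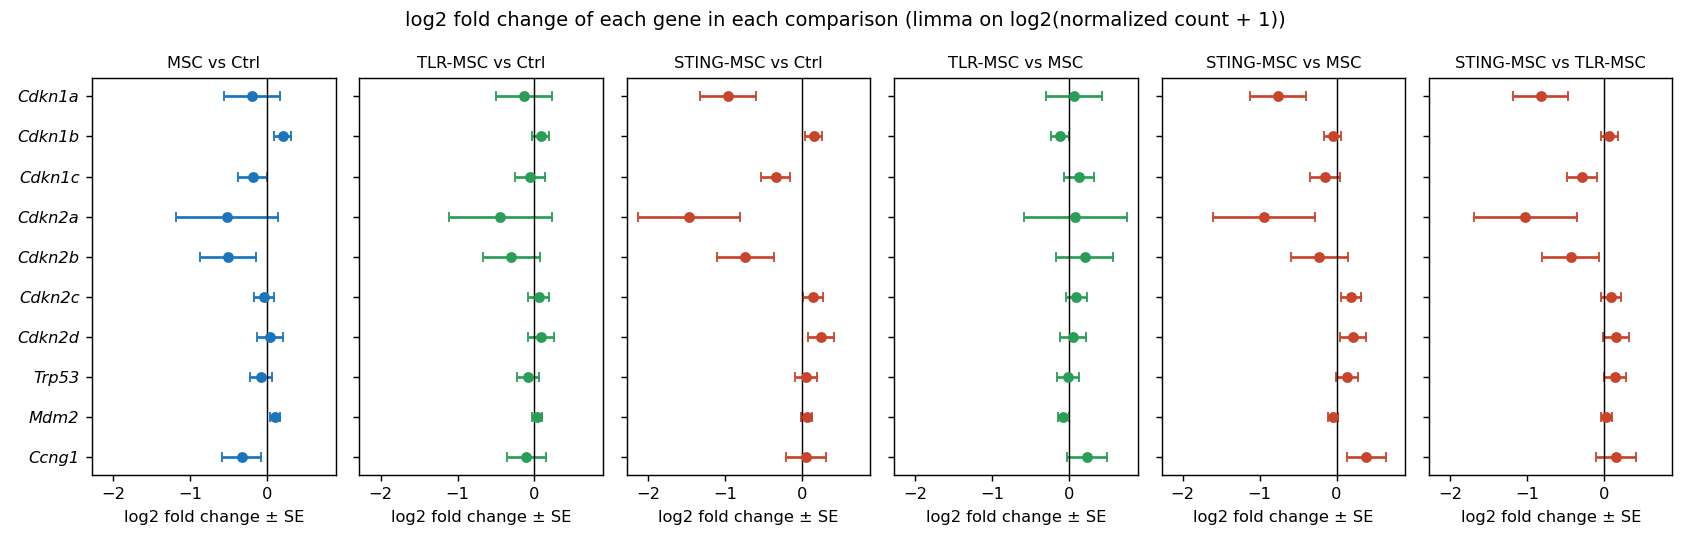
Log2 fold change of each of the 10 genes, with the standard error as whiskers, in the 6 comparisons of groups. Cdkn1a (−0.96) and Cdkn2a (−1.47) lie farthest below 0 for STING-MSC against Ctrl, and Mdm2 stays within −0.07 and 0.10 in all comparisons.

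Cdkn1a (ENSMUSG00000023067, chr17:29309950-29319702 of GRCm39, plus strand) encodes p21, the CIP/KIP inhibitor that p53 switches on. Its 5 Ctrl joints had 1364.5, 1892, 3431, 3537 and 1121 normalized counts, in the order of the replicate numbers. The 5 MSC joints had 1337, 3701, 1592, 994 and 2245, and the 5 TLR-MSC joints had 1246, 1838, 1975, 1349.55 and 3599. The 5 STING-MSC joints had 1103, 1115.53, 1178, 1115.7 and 778. Ctrl, MSC and TLR-MSC each held joints with high values, whereas all STING-MSC joints were low and 4 of them were nearly alike. The highest joint had 3.16 times the count of the lowest in Ctrl, 3.72 times in MSC, 2.89 times in TLR-MSC and 1.51 times in STING-MSC. Among the STING-MSC joints 4 of 5 lay below every Ctrl joint, and replicate 3 lay above the lowest Ctrl joint. All 5 lay below every TLR-MSC joint, and 1 lay below every MSC joint.

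The mean of Cdkn1a was 2269 ± 1144 in Ctrl, 1974 ± 1069 in MSC, 2001 ± 945 in TLR-MSC and 1058 ± 159 in STING-MSC (SD, n = 5 each). As a share of the mean, the SD was 50.4% in Ctrl, 54.1% in MSC, 47.2% in TLR-MSC and 15.1% in STING-MSC. STING-MSC stood at a log2 fold change of −0.96 ± 0.363 (standard error) against Ctrl (ratio of means 0.466; exact permutation p = 0.0159; limma adjusted p = 0.354). Against MSC it was −0.76 (ratio of means 0.536; exact p = 0.0397; limma adjusted p = 0.938), and against TLR-MSC it was −0.82 (ratio 0.529; exact p = 0.00794, the smallest this test can give; limma adjusted p = 0.890). None of these differences passed limma's adjustment over all genes, and in bulk tissue fewer cells of a type that carries the transcript cannot be told apart from less of it in each cell. Differences among the other groups were −0.20 for MSC against Ctrl, −0.14 for TLR-MSC against Ctrl and 0.06 for TLR-MSC against MSC, all smaller than the spread between joints. Without Ctrl replicate 3 the log2 fold change of STING-MSC against Ctrl was −0.77, without Ctrl replicate 4 it was −0.76, and without MSC replicate 2 that against MSC was −0.495. Without TLR-MSC replicate 5, which had the highest value of its group, the fold change of STING-MSC against TLR-MSC was −0.59. Without STING-MSC replicate 5, the lowest joint, it was −0.853 against Ctrl, −0.653 against MSC and −0.717 against TLR-MSC, and without MSC replicate 5 it was −0.675 against MSC.

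**Figure D2:**
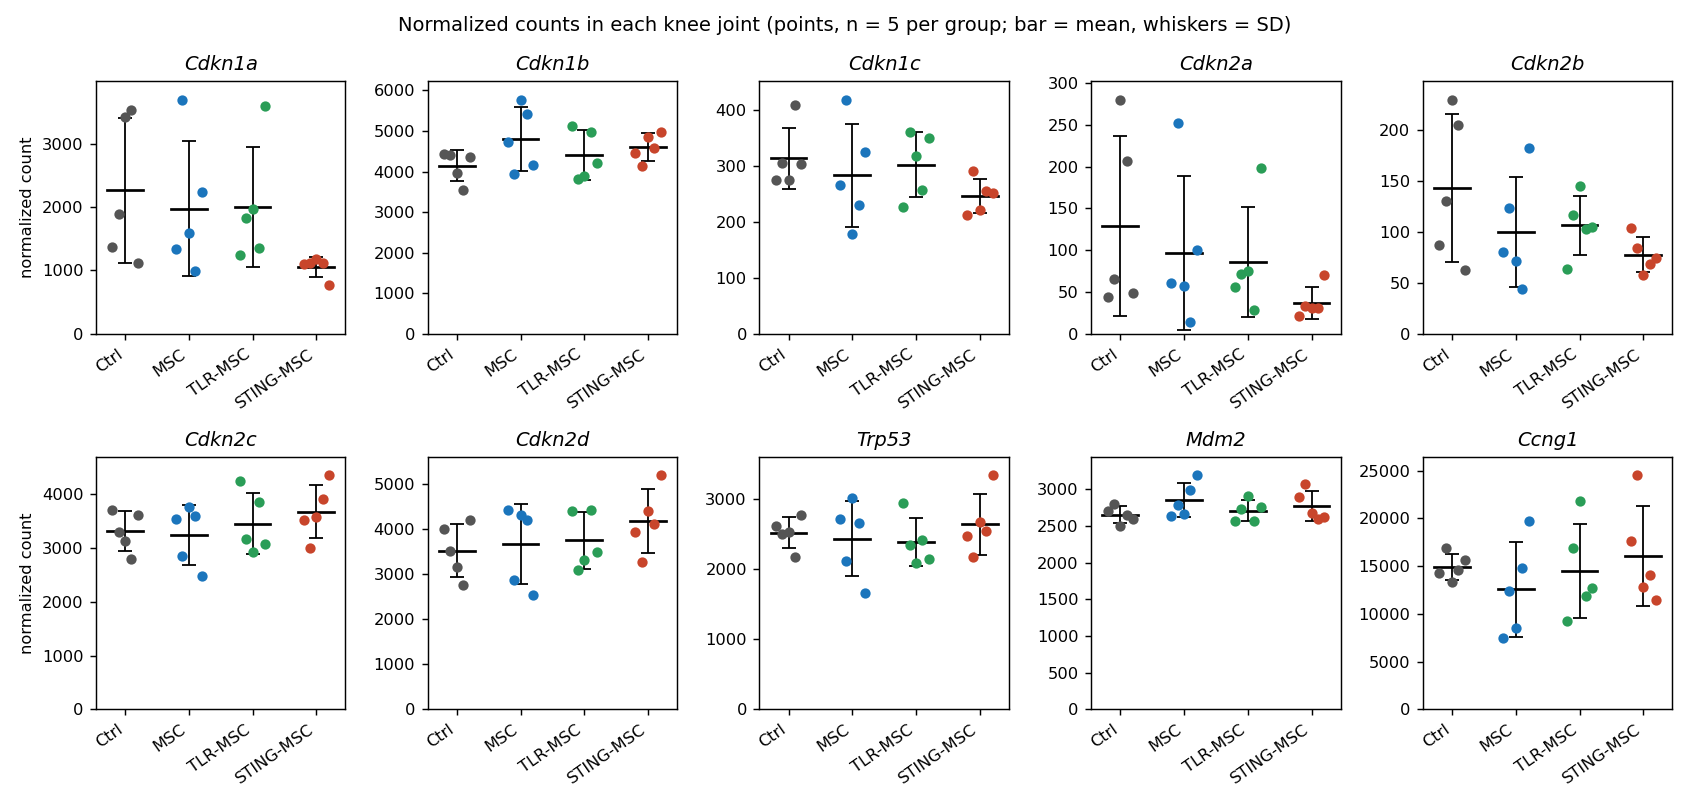
Normalized counts of the 10 genes in each of the 20 joints (points), with the group mean (bar) and SD (whiskers), on axes that start at 0. For Cdkn1a the STING-MSC joints lie between 778 and 1178 while joints of the other groups reach 3701.

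Cdkn1b (ENSMUSG00000003031, chr6:134897364-134902477, plus strand) encodes p27, a CIP/KIP inhibitor that holds resting cells out of the cycle. Its means were 4146 ± 386 in Ctrl, 4801 ± 792 in MSC, 4408 ± 615 in TLR-MSC and 4603 ± 336 in STING-MSC normalized counts, with single joints from 3552 to 5771. For STING-MSC 4 of 5 joints lay above every Ctrl joint, at a log2 fold change of 0.15 (exact p = 0.0873; limma adjusted p = 0.596). MSC joints stood 0.20 above Ctrl with 3 of 5 above every Ctrl joint (exact p = 0.159). The groups overlapped in each comparison.

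Cdkn1c (ENSMUSG00000037664, chr7:143012076-143014788, minus strand) encodes p57, the third CIP/KIP inhibitor, expressed from the maternal copy. The Ctrl joints had 276, 306, 275, 409 and 304 normalized counts and the STING-MSC joints had 212, 291, 222, 256 and 251. MSC joints had 266, 419, 179, 231 and 326, and TLR-MSC joints had 227, 361, 319, 258 and 350.4. Here too 4 of 5 STING-MSC joints lay below every Ctrl joint, replicate 2 being the exception. So did 3 of 5 MSC joints, with 1 above every Ctrl joint, and 2 of 5 TLR-MSC joints, with 0 above. The means were 314 ± 55.1 in Ctrl and 247 ± 31.1 in STING-MSC, or −0.34 ± 0.192 (standard error) on the log2 scale (exact p = 0.0238; limma adjusted p = 0.489). MSC (284 ± 92.5) and TLR-MSC (303 ± 58.7) had means within their spread of Ctrl.

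Cdkn2a (ENSMUSG00000044303, chr4:89192708-89212891, minus strand) encodes p16, an INK4 inhibitor, and, in another reading frame, p19ARF, which holds back Mdm2 protein. A count per gene adds the transcripts of both, so that they cannot be told apart here. The Ctrl joints had 43.4, 65.2, 280.2, 206 and 49.0 normalized counts, and the MSC joints had 60.3, 253, 57.7, 14.0 and 100.8. The TLR-MSC joints had 56.5, 72.0, 75.1, 27.96 and 199, and the STING-MSC joints had 21.0, 33.0, 30.2, 31.2 and 70.0. A few joints carried most of the transcript, namely Ctrl replicates 3 and 4, MSC replicate 2 and TLR-MSC replicate 5, and no STING-MSC joint was among them. Of the STING-MSC joints 4 of 5 lay below every Ctrl joint, replicate 5 being the exception, and the lowest joint of all was an MSC joint.

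Mean Cdkn2a was 128.9 ± 108.004 in Ctrl, 97.1 ± 92.2 in MSC, 86.1 ± 65.8 in TLR-MSC and 37.1 ± 18.99 in STING-MSC. STING-MSC against Ctrl gave −1.47 ± 0.666 (standard error) on the log2 scale (exact p = 0.0476; limma adjusted p = 0.390), and without Ctrl replicate 3 it was −1.08. The log2 fold change against MSC was −0.94 (exact p = 0.230) and against TLR-MSC −1.02 (exact p = 0.119), with overlapping groups in each. With single joints left out these ran from −1.483 to −0.463 and from −1.347 to −0.65.

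Cdkn2b (ENSMUSG00000073802, chr4:89224536-89229277, minus strand) encodes p15, the INK4 inhibitor that TGF-beta induces, and sits beside Cdkn2a on chromosome 4. Ctrl joints had 86.8, 130.5, 230.0, 205 and 62.6 normalized counts, and STING-MSC joints had 104, 84.4, 57.4, 68.7 and 74.8. MSC joints had 80.4, 124, 71.6, 43.7 and 182, and TLR-MSC joints had 64.1, 116, 145, 103 and 105. The high Ctrl joints were replicates 3 and 4, as for Cdkn1a and Cdkn2a, and 1 STING-MSC joint lay below every Ctrl joint. The means were 143 ± 72.9 in Ctrl, 100.3 ± 54.0 in MSC, 107 ± 29.1 in TLR-MSC and 77.8 ± 17.4 in STING-MSC, and STING-MSC differed from Ctrl by −0.73 ± 0.369 (standard error) on the log2 scale (exact p = 0.103; limma adjusted p = 0.433).

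Cdkn2c (ENSMUSG00000028551, chr4:109518073-109524387, minus strand) and Cdkn2d (ENSMUSG00000096472, chr9:21199706-21202704, minus strand) encode the INK4 inhibitors p18 and p19INK4d. Cdkn2c had means of 3309 ± 372 in Ctrl, 3241 ± 554 in MSC, 3452 ± 572 in TLR-MSC and 3675 ± 497 in STING-MSC, and Cdkn2d had means of 3524 ± 588, 3665 ± 891, 3747 ± 626 and 4180.1 ± 703 in the same order. Unlike Cdkn2a and Cdkn2b, both had their highest mean in STING-MSC, at log2 fold changes of 0.15 (exact p = 0.238) and 0.25 (exact p = 0.159) against Ctrl. The groups overlapped, with 2 of 5 STING-MSC joints above every Ctrl joint for each gene.

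Trp53 (ENSMUSG00000059552, chr11:69471185-69482700, plus strand) encodes p53 itself, which is controlled largely as a protein. Its means were 2521 ± 221 in Ctrl, 2437 ± 538 in MSC, 2387 ± 340 in TLR-MSC and 2641 ± 431 in STING-MSC, and the 6 log2 fold changes lay between −0.09 and 0.14. No difference exceeded the spread between joints.

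Mdm2 (ENSMUSG00000020184, chr10:117524780-117546664, minus strand) encodes the ubiquitin ligase that p53 induces and that in turn removes p53. Its Ctrl joints had 2705, 2802, 2495, 2648 and 2598 normalized counts, and its STING-MSC joints had 2886, 3068, 2671, 2595 and 2624. MSC joints had 2628, 2785, 2666, 2991 and 3186, and TLR-MSC joints had 2566, 2729, 2906, 2561 and 2762. All 20 joints were close together, and the groups overlapped. The largest log2 fold change among the 6 comparisons was 0.10, for MSC against Ctrl (exact p = 0.135).

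Ccng1 (ENSMUSG00000020326, chr11:40639379-40646139, minus strand) encodes cyclin G1, another target of p53. Ctrl joints had 14277, 16902, 13328, 14552 and 15660 normalized counts, and MSC joints had 7489, 12367, 8554, 14807 and 19776. TLR-MSC joints had 9286, 16872, 21777, 11843 and 12661, and STING-MSC joints had 17582, 24494, 12803, 14123 and 11459. The Ctrl joints were close together and the 3 treated groups spread widely on both sides of them. Means were 14944 ± 1374, 12599 ± 4973, 14488 ± 4904 and 16092 ± 5219 in the same order of groups, and the 2 widest log2 fold changes were 0.39 for STING-MSC against MSC (exact p = 0.278) and −0.33 for MSC against Ctrl (exact p = 0.278). Without MSC replicate 5 these were 0.574 and −0.517. Thus Mdm2 and Ccng1, which p53 also induces, did not share the low values of Cdkn1a in STING-MSC joints.

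Expressed as normalized counts per kilobase of exon over all 20 joints, the levels ran in the order Ccng1 (3303 ± 966), Cdkn2d (2274 ± 421), Cdkn1b (986 ± 126), Cdkn2c (538 ± 77.6), Mdm2 (356 ± 23.7), Trp53 (338 ± 51.5), Cdkn1a (302 ± 159.5), Cdkn1c (133 ± 29.6), Cdkn2a (74.5 ± 68.1) and Cdkn2b (39.3 ± 18.6). On this scale per kilobase, the ranges of the mean ± SD overlapped between Ccng1 and Cdkn2d and between all neighbours in the order from Mdm2 down to Cdkn2b. They did not overlap between Cdkn2d and Cdkn1b, Cdkn1b and Cdkn2c, or Cdkn2c and Mdm2. The order of the group means per kilobase was the same in each group except for the place of Cdkn1a, which stood above Mdm2 and Trp53 in Ctrl, between them in TLR-MSC and below both in MSC and STING-MSC. On the same scale per kilobase, Cdkn1a stood at 375 in Ctrl, 326.5 in MSC, 331 in TLR-MSC and 175 in STING-MSC, and Cdkn2a at 109.9, 82.8, 73.5 and 31.7.

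How far a gene varied among joints of the same group differed widely. The residual SD of log2 counts was 1.13 for Cdkn2a (higher than in 97.3% of all genes), 0.62 for Cdkn1a (86.1%), 0.61 for Cdkn2b (85.9%), 0.44 for Ccng1 (73.6%), 0.31 for Cdkn1c (58.2%), 0.28 for Cdkn2d (53.9%), 0.24 for Trp53 (45.5%), 0.22 for Cdkn2c (41.0%), 0.18 for Cdkn1b (30.9%) and 0.09 for Mdm2 (4.5%), beside a median of 0.26 over all genes. Over the 20 joints Cdkn2a ranged from 14.0 to 280.2 normalized counts, whereas the highest Mdm2 value was 1.28 times the lowest.

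The variation among joints was shared between genes. Correlations were computed over the 20 joints after each group's mean had been subtracted from the log2 counts, with 100000 permutations within groups, for 6 pairs of biological interest. Mdm2 and Ccng1 moved together (r = 0.905, permutation p = 1e-05, the smallest the permutations can give, adjusted over the 6 pairs 6e-05; rho = 0.886, permutation p = 6e-05, adjusted 0.00036), and without the 2 joints farthest from the median of Mdm2 r was 0.849. Cdkn1a, the third p53 target, moved with neither: r was 0.118 with Mdm2 (permutation p = 0.648, adjusted 0.648; rho = 0.125, p = 0.629, adjusted 0.629; 0.151 without 2 joints) and 0.177 with Ccng1 (permutation p = 0.499, adjusted 0.598; rho = 0.171, p = 0.496, adjusted 0.595; 0.243 without 2 joints). Cdkn1a ran opposite to Trp53 (r = −0.621, permutation p = 0.00544, adjusted 0.0163; rho = −0.743, p = 0.00041, adjusted 0.00123; −0.614 without 2 joints). The neighbours Cdkn2a and Cdkn2b moved together (r = 0.673, permutation p = 0.0106, adjusted 0.0213; rho = 0.692, p = 0.0063, adjusted 0.0126; 0.577 without 2 joints), though not in every group: r over the 5 joints was 0.928 in Ctrl, 0.823 in MSC, 0.184 in TLR-MSC and −0.31 in STING-MSC. Cdkn1a and Cdkn1c did so as well (r = 0.611, permutation p = 0.0167, adjusted 0.0251; rho = 0.626, p = 0.0106, adjusted 0.0159; 0.447 without 2 joints), with r of 0.441 in Ctrl, 0.772 in MSC, 0.78 in TLR-MSC and −0.153 in STING-MSC.

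All 45 pairs of the 10 genes were then correlated, a family added after the values had been seen, and 31 had an adjusted permutation p of at most 0.05, of which 12 were positive and 19 negative. Correlation was common in these joints: r was at least 0.5 in absolute value for 35 of the 45 pairs (77.8%) and for 32.2% of all pairs of genes in the table. The heat map of correlations shows the 10 genes in blocks. Cdkn1a, Cdkn2a, Cdkn2b and Cdkn1c were positively correlated with each other (for Cdkn1c with Cdkn2b the adjusted permutation p was 0.0695), led by Cdkn1a with Cdkn2a (r = 0.839, permutation p = 0.00034, adjusted 0.00139; rho = 0.814, p = 0.00045, adjusted 0.00135; 0.758 without 2 joints). Cdkn1b, Cdkn2c, Cdkn2d and Trp53 formed the opposite block, led by Cdkn2c with Cdkn2d (r = 0.944, permutation p = 1e-05, adjusted 0.000112; rho = 0.925, p = 2e-05, adjusted 0.000225; 0.939 without 2 joints). Between the blocks the values were negative, the most so for Cdkn1b with Cdkn1c (r = −0.877, permutation p = 9e-05, adjusted 0.000579; rho = −0.848, p = 0.00033, adjusted 0.00132; −0.825 without 2 joints). For Cdkn2a the adjusted permutation p of r was above 0.05 with Trp53 (r = −0.332, adjusted 0.279), Cdkn2c (r = −0.502, adjusted 0.0624) and Cdkn2d (r = −0.537, adjusted 0.0517). Inhibitors of the same family therefore stood in opposite blocks. Mdm2 and Ccng1 ran opposite to Trp53 as Cdkn1a did, at r = −0.697 (adjusted permutation p = 0.00927) and −0.761 (adjusted 0.00489). They also ran opposite to Cdkn2c (r = −0.661, adjusted 0.0119, and −0.73, adjusted 0.00647) and to Cdkn2d (r = −0.597, adjusted 0.0298, and −0.699, adjusted 0.00908). Without 2 joints the values were −0.55 and −0.613 for Cdkn2c, and −0.382 and −0.551 for Cdkn2d. Without MSC replicate 5 and STING-MSC replicate 5, r of Cdkn2d with Mdm2 was −0.415.

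**Figure D3:**
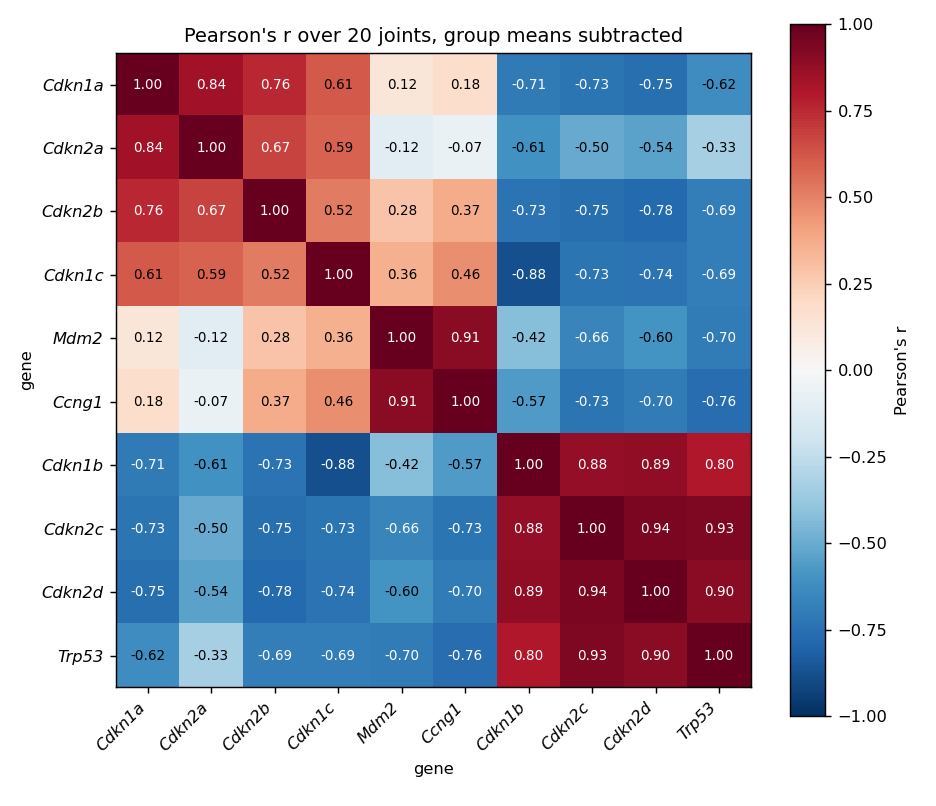
Pearson r between each pair of the 10 genes over the 20 joints, with group means subtracted from log2 counts. Cdkn2c and Cdkn2d reach 0.944 and Mdm2 and Ccng1 0.905, while Cdkn1b and Cdkn1c stand at −0.877.

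Marker transcripts of cell types varied alongside these genes. For 13 lists of cell type markers, the mean log2 level of each list was correlated with each gene, a family of 130 correlations added after the values had been seen, and 53 had an adjusted permutation p of at most 0.05 (27 positive, 26 negative). Here r was at least 0.5 in absolute value for 63 of the 130 (48.5%), beside 32.4% over all genes with the same lists. Cdkn1a moved with the synovial fibroblast markers (r = 0.852, permutation p = 1e-05, the smallest the permutations can give, adjusted 0.000433; rho = 0.926, p = 1e-05, adjusted 0.00026; 0.819 without 2 joints). It also moved with bone (r = 0.626, adjusted permutation p = 0.0436), endothelial (r = 0.623, adjusted 0.0391) and Schwann cell markers (r = 0.533, adjusted 0.0459), and ran opposite to erythroid (r = −0.751, adjusted 0.0094) and neutrophil markers (r = −0.619, adjusted 0.04). By rho the adjusted permutation p was above 0.05 for bone (rho = 0.598, adjusted 0.0666) and endothelial markers (rho = 0.558, adjusted 0.0666). It was 0.0463 for Schwann cell, 0.00664 for erythroid and 0.0345 for neutrophil markers. Without 2 joints r was 0.546 for bone, 0.439 for endothelial, 0.38 for Schwann cell, −0.757 for erythroid and −0.619 for neutrophil markers. Cdkn2a moved with the synovial fibroblast markers too (r = 0.748, permutation p = 0.00246, adjusted 0.0124; rho = 0.743, p = 0.00123, adjusted 0.00792; 0.523 without 2 joints), as did Cdkn2b (r = 0.734, permutation p = 0.00258, adjusted 0.0124; rho = 0.758, p = 0.00128, adjusted 0.00792; 0.627 without 2 joints). With cartilage markers Cdkn2a had r = 0.69 (adjusted permutation p = 0.0195, by rho 0.0573). With erythroid markers it had r = −0.614 (adjusted permutation p = 0.0453, by rho 0.0185). The r of Cdkn2b farthest from 0 was that with erythroid markers (−0.803, adjusted permutation p = 0.00248, by rho 0.00156). Cdkn2b also ran opposite to T cell (r = −0.667, adjusted permutation p = 0.0341) and neutrophil markers (r = −0.638, adjusted 0.04). Cdkn1c had its highest positive r with the endothelial markers (r = 0.787, permutation p = 0.0006, adjusted 0.00512; rho = 0.662, p = 0.00903, adjusted 0.0309; 0.701 without 2 joints). By rho the synovial fibroblast (0.713) and Schwann cell (0.702) markers came before the endothelial ones, and Cdkn1c ran opposite to the erythroid markers (r = −0.793, permutation p = 0.00101, adjusted 0.00772; rho = −0.824, p = 0.00078, adjusted 0.00596; −0.72 without 2 joints).

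All 6 synovial fibroblast markers were in the table, none was at 0 in any joint, and Prg4 was the most abundant. In units of 1000 normalized counts their sum was 233, 245, 378, 558 and 158 in the Ctrl joints and 175, 187, 128, 204 and 45.5 in the STING-MSC joints. The sum was 134, 446, 183, 19.1 and 313 in the MSC joints and 208, 369, 296, 267 and 411 in the TLR-MSC joints. The joints highest in Cdkn1a, namely Ctrl replicates 3 and 4, MSC replicate 2 and TLR-MSC replicate 5, were also the highest of their groups in these markers, and the STING-MSC joint lowest in Cdkn1a was the lowest of its group. The same joints were highest of their groups in the sums of cartilage and of bone markers, and that STING-MSC joint was also lowest in bone markers. Group means were 314, 219, 310.1 and 148 of these units in Ctrl, MSC, TLR-MSC and STING-MSC, but Prg4 alone made up 97.0%, 96.2%, 96.9% and 95.3% of them. The other 5 markers together had means of 9.57, 8.42, 9.62 and 7.0 of these units, which differed far less, and in the correlations each of the 6 markers counted alike as the mean of its log2 level. The part of these markers in the low Cdkn1a of STING-MSC joints was not tested.

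The opposite block moved with the erythroid markers, for which Hbb-bs was the most abundant of 6 of 6 in the table and none was at 0. Cdkn2d had r = 0.922 with them (permutation p = 1e-05, adjusted 0.000433; rho = 0.887, p = 1e-05, adjusted 0.00026; 0.904 without 2 joints), Cdkn2c 0.894 (permutation p = 3e-05, adjusted 0.00078; rho = 0.887, p = 1e-05, adjusted 0.00026; 0.849), Cdkn1b 0.879 (permutation p = 0.00013, adjusted 0.00182; rho = 0.871, p = 0.00017, adjusted 0.0017; 0.837) and Trp53 0.832 (permutation p = 2e-05, adjusted 0.00065; rho = 0.851, p = 1e-05, adjusted 0.00026; 0.841). Their sum in units of 1000 normalized counts was 1510.3, 1231, 1105, 1161 and 1848 in Ctrl, 1719, 947, 1721, 1485 and 864 in MSC, 1675, 996, 1093, 1710.0 and 1355 in TLR-MSC, and 1498, 1182, 1455, 1445 and 1784 in STING-MSC. Erythroid sums overlapped in all groups, and joints low in them, such as MSC replicates 2 and 5, were low in Cdkn2d. The same 4 genes moved with the neutrophil markers too. Cdkn2d had r = 0.874 with these (permutation p = 0.00011, adjusted 0.00179; rho = 0.824, p = 0.00034, adjusted 0.00303; 0.826 without 2 joints), Cdkn1b 0.841 (permutation p = 5e-05, adjusted 0.00108; rho = 0.833, p = 0.00014, adjusted 0.00162; 0.839), Cdkn2c 0.832 (permutation p = 0.00014, adjusted 0.00182; rho = 0.833, p = 7e-05, adjusted 0.00152; 0.823) and Trp53 0.753 (permutation p = 0.00052, adjusted 0.00511; rho = 0.8, p = 0.00035, adjusted 0.00303; 0.703). Neutrophil sums in the same unit were 511.45, 419.6, 352.1, 294.32 and 324.87 in Ctrl, 686.11, 436.8, 595.86, 705.39 and 416.55 in MSC, 494.83, 383.61, 400.63, 601.92 and 468.36 in TLR-MSC, and 536.46, 421.16, 627.74, 552.39 and 640.26 in STING-MSC, with none of the 6 markers at 0. Of the STING-MSC joints 4 of 5 lay above every Ctrl joint in this sum. The 4 genes were not tied to these lists alone. Cdkn1b had an adjusted permutation p of at most 0.05 with 7 lists, and Cdkn2c, Cdkn2d and Trp53 with 8 each. The positive ones also held B cell and T cell markers. The negative ones were synovial fibroblast, endothelial and Schwann cell markers, and skeletal muscle markers for all but Cdkn1b. The part of any list in the levels of these 4 genes was not tested.

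Mdm2 and Ccng1 moved with skeletal muscle markers. Ccng1 had r = 0.982 with them (permutation p = 1e-05, adjusted 0.000433; rho = 0.974, p = 1e-05, adjusted 0.00026; 0.975 without 2 joints) and Mdm2 had r = 0.860 (permutation p = 6e-05, adjusted 0.00111; rho = 0.806, p = 0.00061, adjusted 0.00496; 0.787 without 2 joints), whereas Cdkn1a had r = 0.110 (permutation p = 0.67, adjusted 0.757; rho = 0.0887, p = 0.727, adjusted 0.786; 0.193 without 2 joints). All 6 muscle markers were in the table, none at 0, with Myh4 the most abundant. Their sum in the same unit was 1675, 2026, 1402, 1732.5 and 1805 in Ctrl, 728, 1196, 879.6, 1634 and 2327 in MSC, 962, 2097, 2512, 1224 and 1155 in TLR-MSC, and 2317, 3026.5, 1403, 1588 and 1181 in STING-MSC. The muscle sum was even in Ctrl and wide in the treated groups, as was Ccng1, and its part in the levels of Ccng1 and Mdm2 was not tested.

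**Figure D4:**
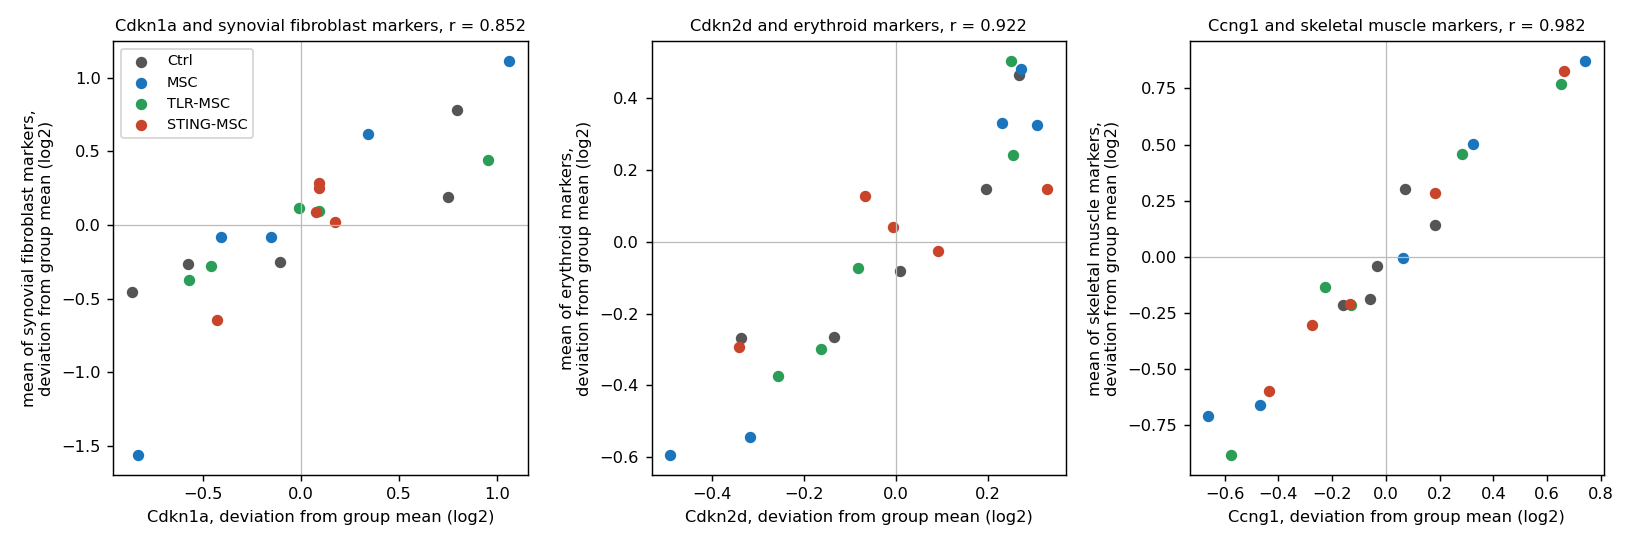
Each joint's deviation from its group mean (log2) for Cdkn1a, Cdkn2d and Ccng1 on the horizontal axis and for the mean of a marker list on the vertical axis. The 20 joints follow a rising line for Cdkn1a with synovial fibroblast markers (r = 0.852), Cdkn2d with erythroid markers (r = 0.922) and Ccng1 with skeletal muscle markers (r = 0.982).

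Between groups, 0 markers of the 13 lists passed an adjusted p of 0.05 in limma, the tool run on the lists, in any comparison. Beside the shares of all genes given above for each comparison, and at an unadjusted limma p of at most 0.05, neutrophil markers (6 of 6 in the table, S100a9 most abundant) had 3 higher in MSC and 4 higher in STING-MSC than in Ctrl. Endothelial markers (6 of 6, Vwf) had 3 lower in STING-MSC than in Ctrl, 1 lower in TLR-MSC than in Ctrl, 1 lower in TLR-MSC than in MSC and 1 higher in STING-MSC than in TLR-MSC. Schwann cell markers (6 of 6, Pmp22) had 2 lower in STING-MSC than in Ctrl, and B cell markers (6 of 6, Cd79b) had 1 lower in STING-MSC than in Ctrl and 1 lower than in TLR-MSC. Adipocyte markers (6 of 6, Fabp4) had 1 higher in TLR-MSC than in Ctrl. Epidermis markers (6 of 6, Krt10), of which 5 were at 0 in some joint, had 3 lower in STING-MSC than in TLR-MSC. The lists for cartilage (6 of 6, Col2a1), bone (6 of 6, Ibsp), synovial fibroblasts, skeletal muscle, erythroid cells, macrophages (6 of 6, Csf1r) and T cells (5 of 6, Lck) had 0 in every comparison.

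For STING-MSC against Ctrl the median log2 fold change, beside 0.01 for all genes, was −0.64 for synovial fibroblast, −0.62 for cartilage, −0.50 for endothelial, −0.34 for Schwann cell, −0.09 for bone, −0.09 for B cell, −0.00 for macrophage, 0.02 for skeletal muscle, 0.09 for erythroid, 0.15 for T cell, 0.48 for neutrophil, 0.55 for adipocyte and −2.36 for epidermis markers. With single joints of the 2 groups left out, an alternative chosen after seeing the data, the epidermis median ran from −3.15 to −0.973, the latter without Ctrl replicate 1, whose sum of these markers was 7.3073 in units of 1000 normalized counts where the other Ctrl joints had 0.080966 to 0.42377. The cartilage median ran from −0.961 to −0.311, and those of bone, skeletal muscle, macrophage, B cell and T cell markers changed sign. The synovial fibroblast median ran from −0.736 to −0.412 and the Schwann cell median from −0.499 to −0.188. For adipocyte markers the range was 0.276 to 0.814, and for erythroid markers 0.0162 to 0.227. No cartilage or bone marker was at 0 in any joint, as was so for every list but epidermis.

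Because p53 is known to induce Cdkn1a, Mdm2 and Ccng1, the start regions of the genes were read for its motif. Cdkn1a moved with synovial fibroblast markers (r = 0.852), and Ccng1 (r = 0.982) and Mdm2 (r = 0.860) with skeletal muscle markers. In whole joints a split by tissue content cannot be told apart from a split in control by p53, and neither was tested. RefSeq start regions of GRCm38.p6, each from 250 bases before to 50 after a gene's start, were scanned for the p53 consensus on both strands. There were 12 such windows for 9 of the 10 genes, and for Cdkn1c there was no window. With at most 1 mismatch the consensus was in 2 of the 12 windows and in 29 of 32851 windows in all, or 0.0883%, and with 0 mismatches it was in 0 of the 12 and in 3 (0.00913%). With at most 2 mismatches it was again in 2 of the 12, and in 262 (0.798%) of all windows. The 2 matches were in the upstream window of Cdkn1a (chr17:29090729-29091028, plus strand), starting 51 bases before the start used for that window, and in the window of Ccng1 (chr11:40755237-40755536, minus strand), starting 195 bases before its start. The other window of Cdkn1a, farther downstream (chr17:29093519-29093818, plus strand), held no match. The 2 windows with a match are printed 5′ to 3′ on the gene's strand, with the match to the consensus in capitals.
Cdkn1a: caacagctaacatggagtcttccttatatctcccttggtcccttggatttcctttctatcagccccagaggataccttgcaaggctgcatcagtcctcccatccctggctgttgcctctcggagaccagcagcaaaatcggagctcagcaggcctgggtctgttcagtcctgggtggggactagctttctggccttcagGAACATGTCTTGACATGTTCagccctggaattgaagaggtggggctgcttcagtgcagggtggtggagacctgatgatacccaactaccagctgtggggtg
Ccng1: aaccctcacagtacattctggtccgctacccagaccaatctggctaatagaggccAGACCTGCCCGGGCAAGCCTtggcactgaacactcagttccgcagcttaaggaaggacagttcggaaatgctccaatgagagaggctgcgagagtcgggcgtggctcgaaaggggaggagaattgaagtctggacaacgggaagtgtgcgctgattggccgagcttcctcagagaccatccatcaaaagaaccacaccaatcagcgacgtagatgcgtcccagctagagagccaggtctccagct
Both genes carry a match although their counts did not move together across joints, and a match is a description of the letters alone. The window of Mdm2 held no match, which says nothing of sites outside it. The motif GGGCGG on either strand was in 8 of the 12 windows and in 35.7% of all windows, and CCAAT on either strand was in 7 of the 12 and in 37.4% of all.

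The other genes of the pathways were read from 9 lists, in which 0 genes passed an adjusted limma p of 0.05 in any comparison. Their counts at the unadjusted p stand beside these shares of all genes: 5.64% higher and 2.91% lower for MSC against Ctrl, 2.68% and 0.906% for TLR-MSC against Ctrl, 6.54% and 5.69% for STING-MSC against Ctrl, 1.89% and 1.99% for TLR-MSC against MSC, 2.77% and 2.17% for STING-MSC against MSC, and 0.784% and 1.78% for STING-MSC against TLR-MSC. Of other transcriptional targets of p53, 37 of 39 were in the table, and at an unadjusted limma p of at most 0.05, 3 were higher and 1 lower in MSC than in Ctrl, 1 was higher in TLR-MSC than in Ctrl, and 2 were higher and 3 lower in STING-MSC than in Ctrl. In STING-MSC 1 was lower than in MSC, and for the other comparisons the count was 0. The median log2 fold change of STING-MSC against Ctrl was 0.05, beside 0.01 for all genes. The 4 with the smallest F-test p were Xpc, which recognizes DNA damage (0.41 for STING-MSC against Ctrl), the kinases Plk2 (−0.77) and Plk3 (−0.61), and the repair factor Ddb2 (0.18, and 0.34 for MSC against Ctrl). Targets of p53 thus stood on both sides of 0 in STING-MSC joints.

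Regulators and relatives of p53 had 21 of 22 in the table. At an unadjusted limma p of at most 0.05, 3 were higher and 1 lower in MSC than in Ctrl, 2 were higher in TLR-MSC and 4 in STING-MSC than in Ctrl, 2 were higher in TLR-MSC and 1 in STING-MSC than in MSC, and 1 was lower in STING-MSC than in TLR-MSC. Their median for STING-MSC against Ctrl was 0.11. The named genes were Trp53bp1, a binding partner of p53 (0.33 for STING-MSC against MSC), the acetyltransferase Crebbp (0.21 for TLR-MSC against Ctrl), the kinase Hipk2 (0.42 for TLR-MSC against Ctrl) and Ppp1r13l, an inhibitor of p53 (−0.74 for STING-MSC against TLR-MSC).

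CDKs, cyclins and the RB and E2F proteins, on which the inhibitors act, had 26 of 26 in the table and 0 at an unadjusted limma p of at most 0.05 in each comparison, with a median of 0.19 for STING-MSC against Ctrl. The 4 named by the smallest F-test p were Ccnd2 (−0.48), E2f5 (−0.33), Tfdp1 (0.26) and Cdk6 (−0.19), each as log2 fold change of STING-MSC against Ctrl. Proliferation markers, 20 of 20 in the table, also had 0 in each comparison, with a median of 0.21, and Foxm1 (0.24), Birc5 (0.23), Aurkb (0.27) and Plk1 (0.22) were the 4 named.

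Factors that set the levels of CDK inhibitors had 22 of 23 in the table. At an unadjusted limma p of at most 0.05, 2 were higher in MSC and 1 higher in TLR-MSC than in Ctrl, 1 was lower in STING-MSC than in Ctrl, 2 were lower in TLR-MSC and 4 in STING-MSC than in MSC, and 1 was lower in STING-MSC than in TLR-MSC. The median for STING-MSC against Ctrl was 0.06. Ets2, an activator of Cdkn2a, stood at −0.30 for STING-MSC against Ctrl and −0.48 against MSC. The other 3 named were the demethylase Kdm6b (0.27 for MSC against Ctrl), the Polycomb protein Cbx8 (0.42 for MSC against Ctrl) and Cebpa (0.305 for TLR-MSC against Ctrl).

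Secreted factors of the senescent state had 34 of 36 in the table, and 7 of them were lower and 1 higher in STING-MSC than in Ctrl at an unadjusted limma p of at most 0.05. Their median for that comparison was −0.24, beside 0.01 for all genes. In the same way 3 were higher in MSC than in Ctrl, 2 were lower in TLR-MSC and 2 in STING-MSC than in MSC, 1 was lower in STING-MSC than in TLR-MSC, and 0 differed between TLR-MSC and Ctrl. The list was not recounted with joints left out. Over all genes, those lower in STING-MSC than in Ctrl at this level numbered 841. Without Ctrl replicate 3 they numbered 365, and without Ctrl replicate 4 they numbered 274. Named were Il1b (0.93 for MSC against Ctrl; limma adjusted p = 0.1045), Plaur (0.61 for MSC against Ctrl; limma adjusted p = 0.1045), Ccl8 (1.02 for STING-MSC against Ctrl) and Timp1 (−2.08 for STING-MSC against Ctrl), whose mean was 5066 ± 4628 in Ctrl and 807.5 ± 194 in STING-MSC. Other genes used as senescence markers, 14 of 16 in the table, had 0 in each comparison and a median of 0.02, with Bcl2l2 (−0.33), Ddah1 (−0.69), Glb1 (−0.29) and Hmga1 (0.135) as the 4 named.

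Immediate-early genes, which respond within minutes to stimulation and handling, had 24 of 25 in the table. At an unadjusted limma p of at most 0.05, 5 were higher in MSC than in Ctrl, 2 were higher and 2 lower in TLR-MSC than in Ctrl, 6 were lower in STING-MSC than in Ctrl, 4 were lower in TLR-MSC and 12 in STING-MSC than in MSC, and 0 differed between STING-MSC and TLR-MSC. The median was −0.18 for STING-MSC against Ctrl and −0.45 for STING-MSC against MSC, beside 0.02 for all genes in the latter. Fos stood at −1.54 for STING-MSC against Ctrl (limma adjusted p = 0.2735), Egr1 at −1.65 (limma adjusted p = 0.256) and Dusp1 at −0.60. Fosb stood at −2.20 for STING-MSC against MSC (limma adjusted p = 0.591) and at −1.015 against Ctrl. Its MSC joints were uneven, with a mean of 797 ± 1001 normalized counts, a median of 241.2 and a highest value of 2531. Whether these genes moved with Cdkn1a from joint to joint was not tested.

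Genes that respond to glucocorticoids had 13 of 14 in the table. At an unadjusted limma p of at most 0.05, 4 were higher in MSC, 1 in TLR-MSC and 4 in STING-MSC than in Ctrl, 3 were lower in TLR-MSC and 4 in STING-MSC than in MSC, and 1 was higher and 1 lower in STING-MSC than in TLR-MSC. The median for STING-MSC against Ctrl was 0.01. Cebpd (0.66; limma adjusted p = 0.0647), Per1 (0.96; limma adjusted p = 0.0981) and Tsc22d3 (0.48) were named with their log2 fold changes of MSC against Ctrl, and Errfi1 with −1.16 for STING-MSC against MSC.

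For each of the 10 genes, genes of the table among the 3 whose pattern over the 20 joints was most like it, by Pearson r with group means subtracted, are named as a description. Closest to Cdkn1a were Pofut2 (0.975), Slc41a2 (0.974) and Vasn (0.973). Cdkn1b was nearest to Btg2 (0.971), Ccdc71l (0.950) and Plagl2 (0.950), and Cdkn1c to Kif26a (0.919), Prox1 (0.917) and Prex2 (0.895). Cdkn2a ran with Slc17a5 (0.941) and Pik3r2 (0.929), and Cdkn2b with Mgrn1 (0.912), Apc (0.902) and Hsd17b7 (0.895). Most like Cdkn2c were Kit (0.979), Racgap1 (0.979) and Plk1 (0.975), of which Plk1 is a proliferation marker, and most like Cdkn2d were Tspan32 (0.975), Hba-a1 (0.974) and Macir (0.972), of which Hba-a1 encodes a globin. Trp53 was nearest to Sf3b1 (0.984), Spdl1 (0.971) and Cpsf2 (0.968). Mdm2 ran with Zswim9 (0.958), Smtnl2 (0.944) and Ndufaf4 (0.941), and Ccng1 with Golga4 (0.995) and Kif1b (0.992).

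Except for Cdkn2a, each of the 10 genes shares bases with another gene of the GENCODE annotation, whose gene spans differ in part from those deposited with the counts. Ccng1 overlaps Nudcd2 and Trp53 overlaps Wrap53, both on the opposite strand and both with their own counts in the table. The overlap with Wrap53 ends at base 69471151, before the deposited start of Trp53 at 69471185, so that the deposited span of Trp53 does not hold it. The other overlapping genes are not in the table. On the opposite strand they are Dino and Gm64878 for Cdkn1a, Gm44238 for Cdkn1b, Gm44732 for Cdkn1c, Gm12610 for Cdkn2b, Gm57073 and Gm68465 for Cdkn2c, Gm69914 for Cdkn2d, Gm56970 for Mdm2 and Gm57392 for Trp53, so that reads from them could have been counted as these genes if the counting ignored strand. On the same strand 4933417O13Rik spans the whole of Cdkn1c, and reads of the 2 could not be separated by strand.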

How the data were processed

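The deposited values are a normalized signal: the authors aligned reads to GRCm39 with STAR 2.7.3a, used HTSeq and the Ensembl gene models for counting, and divided each joint's counts by a median-ratio size factor before depositing them. Whether counting used strand is not stated. The study names DESeq2 for its tests. Here limma 3.58.1 with trend (R 4.3.3) was fitted to log2(normalized count + 1) of all 20 joints and 4 groups, in place of DESeq2 because the deposited values are not whole counts. Whole reads were recovered for edgeR 4.0.16 and DESeq2 1.42.0: from 99.83% to 99.92% of a joint's values were whole within 0.1 read, and 100% of those under 1000. Permutations and correlations used numpy 2.4.6, scipy 1.17.1 and pandas 2.3.3.

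The 10 genes and all lists were chosen with earlier results of these data known. Named genes are all 10, the 4 with the smallest F-test p in each pathway list, the 3 most like each gene and the most abundant of each marker list; 2 of the genes most like another are not reported here. Column names carry a prefix that is shared within a group and whose meaning is not stated, so that anything it marks cannot be told apart from treatment. Fold changes and counts were recomputed with pseudocounts of 0.5 and 5, with genes of mean 20 or more, from the pair of groups alone, after quantile normalization, in edgeR and DESeq2, with a replicate block, and without each joint in turn.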

Additional observations from a re-analysis of the deposited data

Results flagged for a closer look

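In 4 of the 40 sets of 5 joints, a joint lay far from the others of its group for a gene, where chance gives about 1 in 20. Cdkn1a had its lowest STING-MSC value in replicate 5, at 778 normalized counts, and this joint also had the lowest sum of synovial fibroblast markers of its group. Cdkn2a had a high value in the same joint, at 70.0, so that its low Cdkn1a did not extend to Cdkn2a. It lacked reads for 97 genes, 47 of which all other joints had. Cdkn2a was also high in TLR-MSC replicate 5, at 199, and Cdkn1c was high in Ctrl replicate 4, at 409. No cause was tested for any of these.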

How the results depend on the processing

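In no setting did any of the 10 genes reach an adjusted p of 0.05, in limma, edgeR or DESeq2. Over all genes the tools differed: at an adjusted p of at most 0.05 limma called 1 gene between MSC and Ctrl and 0 in the other comparisons and over the 4 groups. There edgeR called 15 for MSC against Ctrl, 1 for TLR-MSC against MSC, 2 over the 4 groups and 0 in the other 4 comparisons. DESeq2 called 105 for MSC, 3 for TLR-MSC and 85 for STING-MSC against Ctrl, 7 for TLR-MSC and 29 for STING-MSC against MSC, 2 for STING-MSC against TLR-MSC and 111 over the 4 groups. The cause was not tested.

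The number of the 10 genes at an unadjusted p of at most 0.05 depended on single joints. For MSC against Ctrl it was 0, and 0 to 2 with joints left out: 1 without Ctrl replicate 5 or MSC replicate 2, and 2 without MSC replicate 5, where all genes had 1131, 2468 and 1926 beside 1265 with all joints. For STING-MSC against Ctrl it was 2, and 0 to 3 with joints left out: 0 without Ctrl replicate 3 or 4, the Ctrl joints highest in Cdkn1a and Cdkn2a, and 1 without STING-MSC replicate 2, 3 or 4. All genes had 1105 and 868 without Ctrl replicates 3 and 4, and 2168, 1320 and 1506 without those STING-MSC joints. Without STING-MSC replicate 1 it stayed 2, with Cdkn2b in place of Cdkn2a. The 2-group fit, edgeR and DESeq2 each gave 3 there, beside 2296 of 14793, 1970 of 14793 and 2242 of 14754 genes in all, where the main fit had 1808 of 14793. For STING-MSC against MSC it was 1, and 0 to 2 with joints left out: 2 without MSC replicate 4, and 0 without Ctrl replicate 2, MSC replicate 2 or 3, TLR-MSC replicate 2, 3 or 4, or any STING-MSC joint. All genes had 731 there, and from 579 to 985 with joints left out. Without MSC replicate 5 it stayed 1, but as Ccng1 in place of Cdkn1a. In that comparison a minimum mean of 20 gave 0, DESeq2 gave 2 and the replicate block gave 0 (replicate block log2 fold change of Cdkn1a −0.76). For STING-MSC against TLR-MSC it was 1, and 0 to 1 with joints left out: 0 without TLR-MSC replicate 2, 3 or 5 or STING-MSC replicate 5, where all genes had 236, 334, 144 and 167 beside 380. Over the 4 groups it was 0, but 1 in edgeR and 1 in DESeq2 (1088 of 14793 and 1438 of 14754 genes in all, beside 950 in limma), and 0 to 1 with joints left out: 1 without Ctrl replicate 1 or 5 or MSC replicate 2 or 4, where all genes had 1307, 843, 1653 and 894. The cause was not tested. A fit of only the 2 groups compared gives no value over the 4 groups.

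Of 1680 fold changes under alternatives 1595 kept their direction and their side of an unadjusted p of 0.05, 15 passed it, 26 fell short of it and 44 changed sign, none of which was past it. Cdkn1a in STING-MSC stayed below Ctrl, between −1.18 and −0.76 with joints left out, below MSC, between −0.97 and −0.495, and below TLR-MSC, between −0.97 and −0.59. Cdkn2a stayed below Ctrl, between −1.75 and −1.08, below MSC, between −1.483 and −0.463, and below TLR-MSC, between −1.347 and −0.65.

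Of the log2 fold changes that changed sign, Cdkn2a for TLR-MSC against MSC was 0.08, but −0.013 with quantile normalization, −0.18 with edgeR and −0.175 with DESeq2, and −0.46 to 0.56 with joints left out. Ranges with joints left out crossed 0 as well for MSC against Ctrl in Cdkn1a (−0.464 to 0.009), Cdkn2a (−0.524 with all joints, and −1.002 to 0.018), Cdkn2c (−0.099 to 0.053), Cdkn2d (−0.049 to 0.159) and Trp53 (−0.159 to 0.055). For TLR-MSC against Ctrl they did so in Cdkn1a (−0.374 to 0.064), Cdkn1c (−0.127 to 0.041), Cdkn2c (−0.026 to 0.109) and Ccng1 (−0.267 to 0.041). For STING-MSC against Ctrl they did so in Trp53 (−0.031 to 0.125) and Ccng1 (−0.108 to 0.166). For TLR-MSC against MSC the ranges were −0.175 to 0.329 in Cdkn1a, −0.021 to 0.285 in Cdkn1c, −0.05 to 0.458 in Cdkn2b, −0.07 to 0.13 in Cdkn2d and −0.14 to 0.074 in Trp53. For STING-MSC against MSC they were −0.116 to 0.022 in Cdkn1b, −0.303 to 0.003 in Cdkn1c and −0.481 to 0.028 in Cdkn2b, and for STING-MSC against TLR-MSC −0.006 to 0.058 in Mdm2 and −0.005 to 0.323 in Ccng1. The cause was not tested.

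Without both MSC replicate 5 and STING-MSC replicate 5, an alternative chosen after seeing the data, r of Cdkn1a with Mdm2 was −0.00216 in place of 0.118, and the other 5 pairs tested kept their direction and their side of an adjusted p of 0.05.

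Joints with the same replicate number did not pair: their mean r over 30 pairs was −0.033, beside 0.007 over 120 pairs with different numbers. The lowest read numbers in a joint were 16 for Cdkn2a, 53 for Cdkn2b and 162 for Cdkn1c, and the part of depth in their spread between joints was not tested.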
